A study of Mus musculus with 8 samples.

Results

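The output of the Hippo pathway was examined through 10 genes in murine pancreatic ductal adenocarcinoma (PDAC) cells treated with the MEK inhibitor trametinib. The genes were taken by name from a table of 34478 genes: the coactivators Yap1 (YAP) and Wwtr1 (TAZ), the DNA-binding factors Tead1, Tead2, Tead3 and Tead4, and the target genes Ccn1, Ccn2, Ankrd1 and Amotl2. Ccn1 and Ccn2 are listed in the table under their older symbols Cyr61 and Ctgf. The rule uses the gene names alone, although the list was drawn up with earlier results of these data known, and all 10 genes were present. RNA-seq was performed on 4 primary PDAC lines, numbered #1, #3, #5 and #10, each with 1 library after vehicle (DMSO) and 1 library after 48 h of trametinib, which gives 8 libraries. Both groups share one genotype. Ptf1a is wt/Cre, so that the Cre recombinase is driven from a locus of the pancreatic lineage, and Trp53 is loxP/loxP and is deleted by it. Each line was given trametinib at its own half-maximal inhibitory concentration, so the dose was not the same across lines. The labels do not say from which animal each line came, and give no age. Values below are normalized counts per gene, and values for the lines are given in the order #1, #3, #5 and #10.

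The Hippo pathway is a kinase cascade that restrains YAP and TAZ. The kinases encoded by Stk3 and Stk4 activate the kinases encoded by Lats1 and Lats2, which phosphorylate YAP and TAZ and hold them in the cytoplasm or send them to degradation. When the cascade is low, for example on a stiff substrate or in spread cells with tense actin fibres, YAP and TAZ enter the nucleus, bind a TEAD factor and switch on target genes. Much of this control is on the proteins, so that mRNA levels of Yap1 and Wwtr1 do not report the activity of their products. In the pancreas, YAP has been studied in the change of acinar into duct-like cells and in tumour growth.

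TEAD factors bind the word CATTCC, read GGAATG on the other strand. Promoter windows were taken from RefSeq (build GRCm38.p6), each with 250 bases before and 50 bases after a transcription start. Of the 10 genes, 7 had an entry in the set of windows used, with 10 windows in all. Tead1, Tead4 and the target Ccn2 had none in that set, so their promoters were not searched. The 3 target promoters are shown because these genes had the TEAD word and moved together with trametinib, and capitals mark the word on either strand. They lie at chr3:145649936-145650235 (minus strand) for Ccn1, chr19:36119795-36120094 (minus strand) for Ankrd1 and chr9:102717554-102717853 (plus strand) for Amotl2.
Ccn1: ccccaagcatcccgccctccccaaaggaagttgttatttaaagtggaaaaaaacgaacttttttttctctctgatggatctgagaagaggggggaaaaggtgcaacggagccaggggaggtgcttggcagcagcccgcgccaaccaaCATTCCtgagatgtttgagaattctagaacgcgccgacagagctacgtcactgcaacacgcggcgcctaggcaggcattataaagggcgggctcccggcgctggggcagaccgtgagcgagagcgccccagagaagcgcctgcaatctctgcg
Ankrd1: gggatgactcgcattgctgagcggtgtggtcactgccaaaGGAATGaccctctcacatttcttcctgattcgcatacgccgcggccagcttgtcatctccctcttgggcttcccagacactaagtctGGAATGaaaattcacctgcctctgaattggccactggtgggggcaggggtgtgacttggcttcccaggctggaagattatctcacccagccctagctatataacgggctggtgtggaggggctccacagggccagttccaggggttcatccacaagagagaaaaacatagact
Amotl2: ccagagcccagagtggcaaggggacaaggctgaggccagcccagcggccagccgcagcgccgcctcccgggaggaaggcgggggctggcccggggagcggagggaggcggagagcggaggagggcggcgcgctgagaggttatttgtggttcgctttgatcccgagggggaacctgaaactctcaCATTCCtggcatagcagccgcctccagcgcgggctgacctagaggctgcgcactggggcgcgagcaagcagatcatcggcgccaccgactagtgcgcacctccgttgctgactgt

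The first base of the word lay 103 bases before the RefSeq start in Ccn1, 210 and 123 bases before it in Ankrd1 and 65 bases before it in Amotl2. The gene positions given below are from GENCODE, and by these the Ankrd1 and Amotl2 windows lie inside the gene. Their words are thus before the RefSeq start used here but after the GENCODE start of the gene. The coactivator genes carried the word too, and 30 bases around it are shown, at chr3:57576029-57576058 for Wwtr1 and chr9:8004720-8004749 for Yap1, both on the minus strand.
Wwtr1: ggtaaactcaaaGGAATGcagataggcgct
Yap1: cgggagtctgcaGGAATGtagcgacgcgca
The word stood 141 bases before the start of Yap1 and 136 or 170 bases before the starts of Wwtr1, whose windows overlap and hold the same copy. Tead3 held 4 copies over its windows, and Tead2 held none. In all, the TEAD word was found in 6 of the 7 genes and in 8 of the 10 windows, against 14.7% of the 32851 promoter windows in the whole set used. The AP-1 word TGANTCA, which is the same on both strands, was in 7.81% of all windows, and the CArG box, the word of serum response factor, was in 1.63%. Neither was in any of the 10 windows. At these shares few or no matches would be found in 10 windows, some of which overlap, so their absence is not a trait of these genes. A match to these letters is a description of the sequence, and binding was not measured.

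Library totals ran from 30680100 to 36385700 normalized counts, and the lowest value of any of the 10 genes in any library was 291. The 10 genes were therefore well above the level of 3 reads, estimated at 2.33 to 3.72 normalized counts. The effect of the drug was checked on ERK-dependent genes, and all 3 fell, with log2 fold changes of -2.51 for Dusp6, -5.92 for Etv4 and -4.82 for Etv5 (limma, adjusted p = 0.000123, 0.000201 and 0.000317). Of 9 epithelial markers, Cdh1, Krt7, Krt8, Krt18 and Krt19 were all above 9734 in every library. The others were lower, with Sox9 at 65.5 to 1246, Cldn7 at 11.3 to 963, Cldn4 at 12.4 to 1461 and Epcam at most 10.4. Of the 7 acinar markers, Cpa1, Cel, Pnlip and Ptf1a were below 5 everywhere.

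With trametinib, 8 of the 10 genes rose, 1 fell (Tead4) and 1 did not pass the test (Yap1), by limma with a block for each line and a Benjamini-Hochberg adjusted p under 0.05. Among all 15888 genes tested, 27.3% rose and 25.6% fell, so that a change as such was common. The 4341 genes that rose were 51.6% of those called, and this share was 61.9% when libraries were rescaled to equal totals, which moved the median change of all genes from 0.07 to 0.20. It was 46.1% with libraries centred on their median and 47.2% with quantile normalization. The median log2 fold change was 0.97 over the 10 genes, 2.46 over the 4 targets and 0.67 over the coactivators and TEAD genes. The 8 libraries separated without overlap, trametinib higher, for 6 of the 10 genes, against 15.1% of genes tested, and trametinib lower for 1, against 16.2%. A rise that passed the test and was at least 2-fold was seen for 4 of the 10, the targets, against 13.8% of genes tested. Since the libraries are bulk RNA from cultures, a change in the share of cells expressing a gene and a change in RNA per cell cannot be told apart. This holds for rises and falls alike. p-values measure the spread of the drug effect between these 4 lines.

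**Figure D1:**
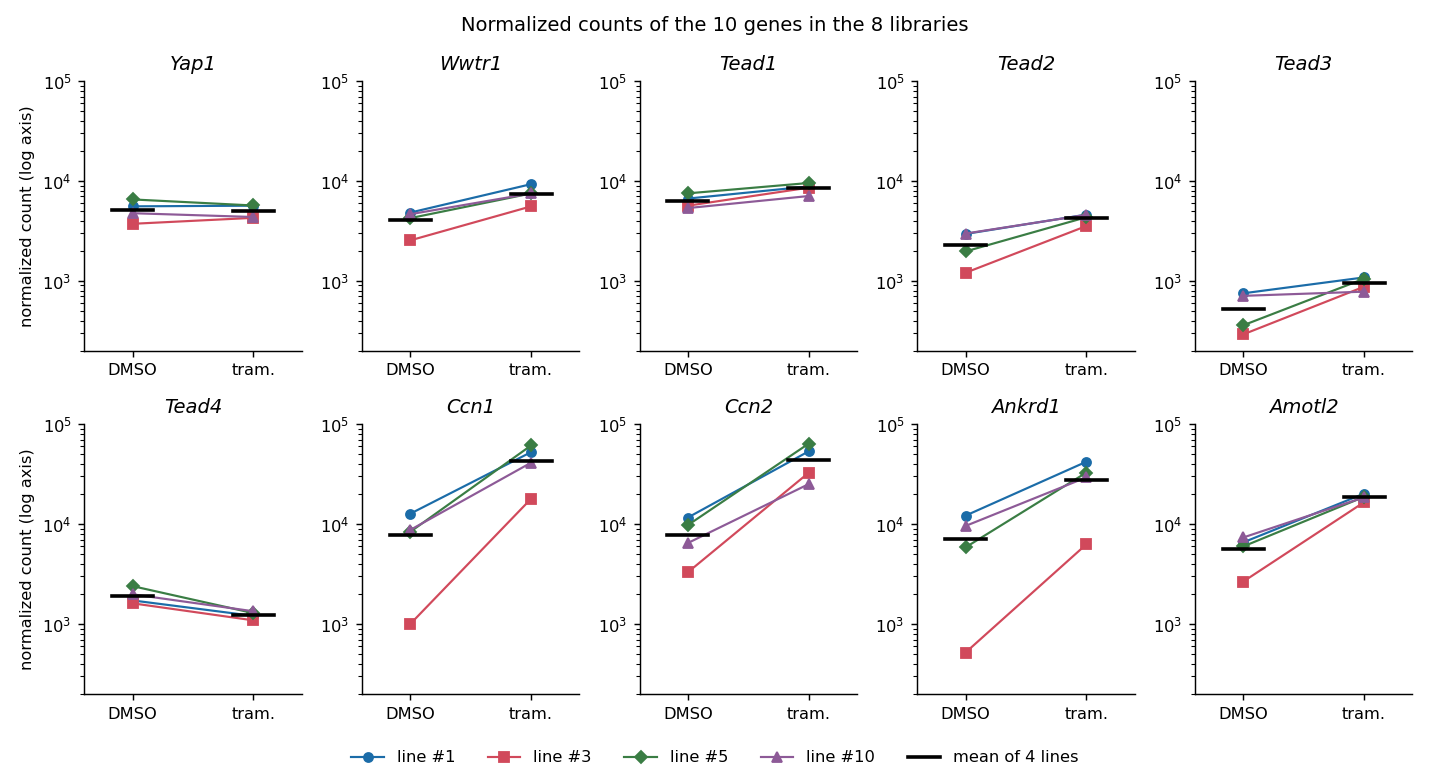
Normalized counts (log axis) of the 10 genes with DMSO and with trametinib; each coloured line joins the libraries of 1 cell line and black bars are means of 4 lines. The 4 target genes rose in every line, Tead4 fell in every line, and line #3 started lowest for 9 of the 10 genes.

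Of the coactivators, Wwtr1 rose and Yap1 did not pass the test. Yap1, on chr9:7931999-8004596 (mm10, minus strand), was at 5571, 3725, 6533 and 4755 with DMSO and at 5655, 4274, 5680 and 4358 with trametinib. The libraries overlapped, with trametinib higher in 2 lines and lower in the other 2. Its log2 fold change was -0.03 (SE 0.09, 95% interval -0.25 to 0.20, limma adjusted p = 0.827), and its sign turned to 0.10 with libraries rescaled to equal totals and to 0.11 with quantile normalization. Wwtr1, on chr3:57455649-57575910 (minus strand), was at 4822, 2543, 4244 and 4645 with DMSO and at 9291, 5569, 7498 and 7496 with trametinib. Every trametinib library was above every DMSO library. The log2 fold change was 0.90 (SE 0.10, 95% interval 0.67 to 1.13, limma adjusted p = 0.000696), a 1.86-fold rise, and the lines ranged from 0.69 in line #10 to 1.13 in line #3.

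Within a library, the ratio of Wwtr1 to Yap1 counts needs no scaling between libraries. It was 0.866, 0.683, 0.650 and 0.977 with DMSO and 1.643, 1.303, 1.320 and 1.720 with trametinib. Thus Wwtr1 had fewer counts than Yap1 in all 4 DMSO libraries and more in all 4 trametinib libraries. The mean log2 change of the ratio was 0.92 ± 0.08 (SD, n = 4; two-sided exact permutation test that flips the signs of the line differences, p = 0.13, which is as low as 4 lines can reach). Which of the genes had the higher level per length depended on the length used. Per kb of merged exons, the DMSO level was 850 ± 218 for Wwtr1 and 556 ± 129 for Yap1 (SD, n = 4), whereas per kb of the longest coding transcript it was 865 ± 222 and 1234 ± 286. With trametinib Wwtr1 was higher on both scales, at 1562 ± 318 against 539 ± 84.4 per kb of merged exons and at 1589 ± 324 against 1197 ± 187 per kb of the longest coding transcript.

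The TEAD genes encode the factors through which YAP and TAZ, which have no DNA-binding domain, reach their targets. Tead1, Tead2 and Tead3 rose, and Tead4 fell. Tead1, on chr7:112679318-112906807 (plus strand), was at 6662, 5655, 7514 and 5352 with DMSO and at 8816, 8569, 9543 and 7067 with trametinib. It was higher with the drug in each line, but the groups overlapped, since line #10 with trametinib was below line #5 with DMSO. Its log2 fold change of 0.44 (SE 0.08, 95% interval 0.24 to 0.64) passed by limma with an adjusted p of 0.00492 and did not pass without the block for cell line (adjusted p = 0.062). Tead2, on chr7:45215753-45233644 (plus strand), was at 2948, 1206, 1971 and 2975 with DMSO and at 4607, 3542, 4338 and 4587 with trametinib. The groups did not overlap, and the 4 trametinib libraries lay closer together than the DMSO libraries. Its log2 fold change was 0.99 (SE 0.17, 95% interval 0.59 to 1.39, limma adjusted p = 0.00298).

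Tead3, on chr17:28331671-28350817 (minus strand), was the least abundant, at 751, 291, 359 and 708 with DMSO and at 1083, 874, 1051 and 780.03 with trametinib. The groups did not overlap, yet line #10 rose by only 0.14 on the log2 scale, against 0.53, 1.58 and 1.55 in lines #1, #3 and #5. The log2 fold change of 0.95 (SE 0.26, 95% interval 0.33 to 1.57, limma adjusted p = 0.021) passed in fewer of the alternatives than that of any other of the 9 genes. Without line #3 it was 0.74 (limma adjusted p = 0.051), without line #5 it was 0.75 (adjusted p = 0.082), and without the block its adjusted p was 0.053. Tead4, on chr6:128224288-128300823 (minus strand), went the other way, from 1725, 1614, 2398 and 1984 with DMSO to 1208, 1089.52, 1287 and 1343 with trametinib. Every trametinib library was below every DMSO library. Its log2 fold change was -0.64 (SE 0.10, 95% interval -0.87 to -0.40, limma adjusted p = 0.00233).

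The composition of the TEAD pool was compared as each gene's share of the summed level of the 4 genes per kb of merged exons. With DMSO the shares of Tead4, Tead1 and Tead2 were close, at 34.8% ± 5.28, 30.3% ± 5.33 and 29.9% ± 7.96 (SD, n = 4), and the order differed between lines. Tead2 led in lines #1 and #10, with 36.3% and 37.1%, and Tead4 led in lines #3 and #5, with 38.6% and 39.5%. With trametinib Tead2 led in all 4 lines, with 45.6%, 41.0%, 42.7% and 48.7%, and Tead4 was at 15.9%, 16.8%, 16.8% and 19.0%. The Tead2 share was higher by 14.6 ± 4.91 percentage points and the Tead4 share changed by -17.7 ± 5.32 points, each in the same direction in 4 of 4 lines (same exact permutation test, p = 0.13 each, adjusted over the 4 genes 0.25). The sizes depended on the length used, since without division by length the differences were 8.32 and -9.29 points and Tead1 had the largest share in both groups, with 57.4% and 56.8%, against 28.6% for Tead2 with trametinib. Per longest coding transcript they were 13.2 and -16.0 points. The Tead3 share was 4.95% ± 1.74 and 7.03% ± 0.775. The Tead1 share differed by 1.03 points, and this turned to -0.61 points without division by length and to -0.45 points per longest coding transcript. The summed TEAD level per kb was 1160 to 1698 with DMSO and 1804 to 2123 with trametinib, with no overlap.

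**Figure D2:**
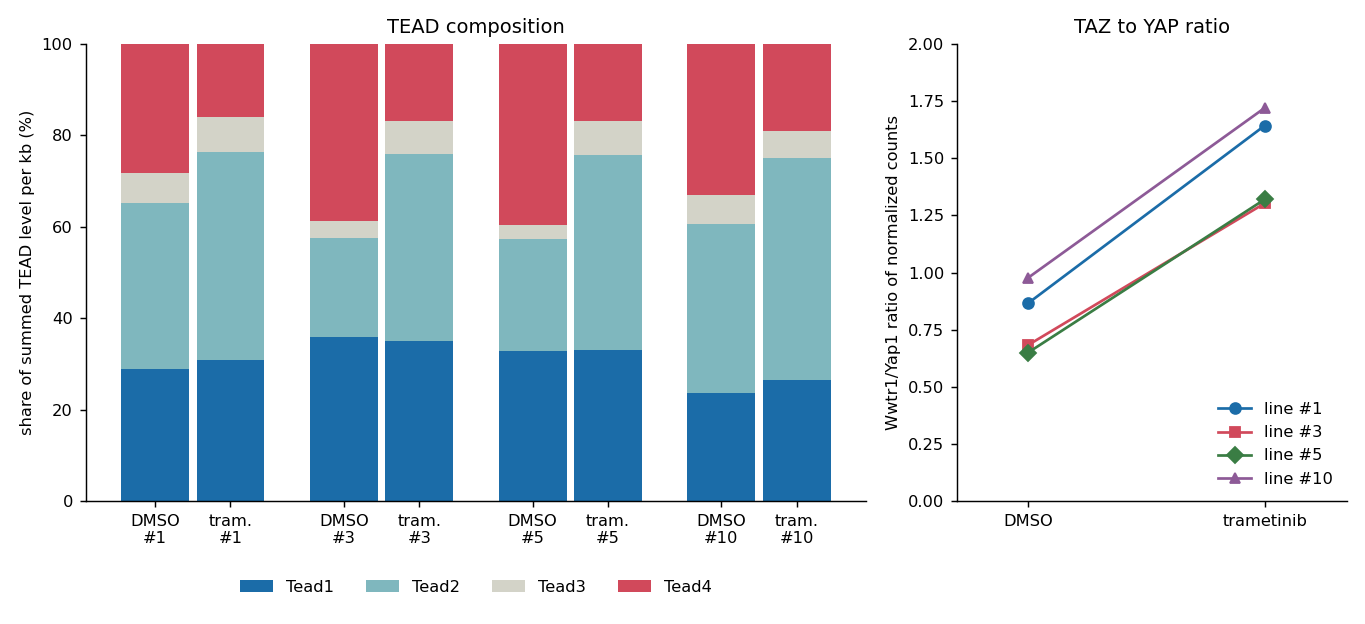
Left, share (%) of each TEAD gene in the summed level per kb of merged exons in each library, in pairs by line; right, ratio of Wwtr1 to Yap1 normalized counts, with 1 line per cell line. Tead2 had the largest share in all 4 trametinib libraries, the Tead4 share was lower there in every line, and the ratio crossed 1 in every line.

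The target genes rose most. Ccn1, on chr3:145646976-145649981 (minus strand), encodes a secreted matricellular protein that binds integrins. It was at 12713, 1001, 8372 and 8749 with DMSO and at 52595, 17968, 61366 and 41246.5 with trametinib. Every trametinib library was above every DMSO library, although line #3 stayed lowest under both. The log2 fold change was 2.83 (SE 0.33, 95% interval 2.05 to 3.61, limma adjusted p = 0.000874), and the rise was 4.14-, 17.9-, 7.33- and 4.71-fold in the lines. Ccn2, on chr10:24595442-24598683 (plus strand), encodes connective tissue growth factor, a relative of Ccn1 that promotes matrix deposition. It was at 11649, 3301, 9789 and 6477 with DMSO and at 53626, 32762, 64045 and 25186 with trametinib. Again the groups did not overlap, and here line #10 was the lowest with trametinib. Its log2 fold change was 2.55 (SE 0.22, 95% interval 2.03 to 3.06, limma adjusted p = 0.000363).

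Ankrd1, on chr19:36111961-36120099 (minus strand), encodes an ankyrin repeat protein known from stressed heart muscle and widely used to read out YAP and TAZ. It was at 12171.5, 519, 5859 and 9595 with DMSO and at 42175, 6298, 32849 and 29412 with trametinib. It rose in every line, by 3.47-, 12.1-, 5.61- and 3.07-fold, but the groups overlapped, since line #3 with trametinib was below lines #1 and #10 with DMSO. The log2 fold change was 2.37 (SE 0.31, 95% interval 1.64 to 3.11, limma adjusted p = 0.00123), and without the block for cell line it did not pass (adjusted p = 0.105). Amotl2, on chr9:102716672-102733418 (plus strand), encodes an angiomotin that binds and restrains YAP and so is both a target and a brake. It was at 6571, 2662, 5982 and 7353 with DMSO and at 20204, 16601, 18769 and 18573 with trametinib. The groups did not overlap, and the trametinib libraries were nearly level. Its log2 fold change was 1.81 (SE 0.20, 95% interval 1.32 to 2.30, limma adjusted p = 0.000800).

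**Figure D3:**
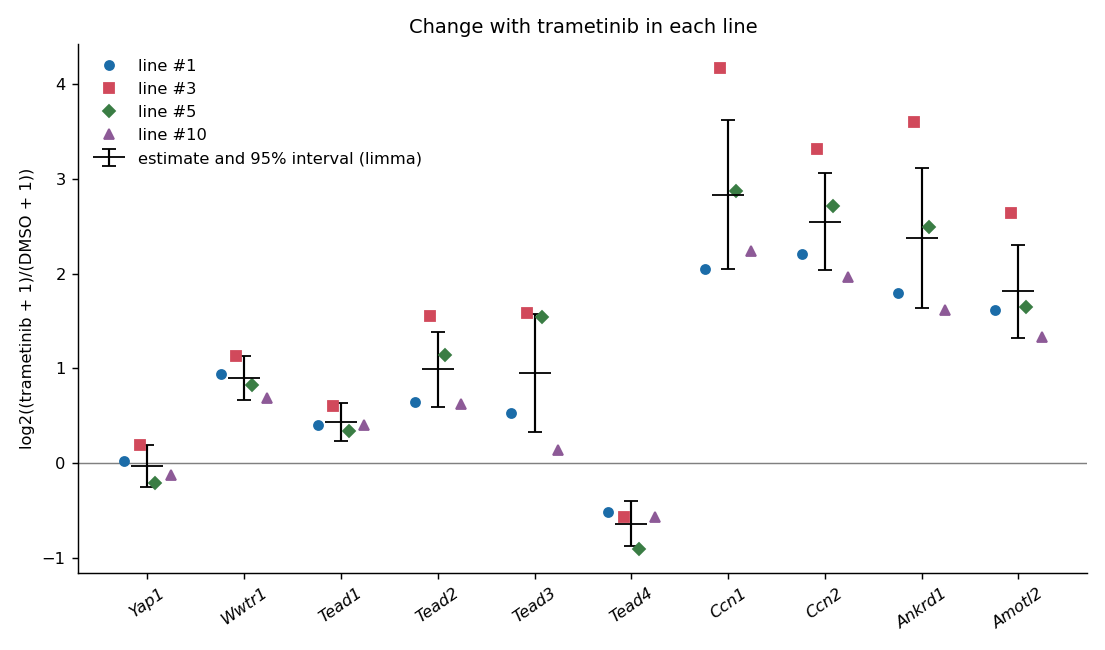
Log2 fold change of the 10 genes with trametinib on the log2(normalized count + 1) scale; symbols are the 4 lines, dashes are the limma estimates and bars their 95% intervals. The intervals of the 4 targets lie above 1, that of Tead4 lies below 0, that of Yap1 spans 0, and line #3 gives the highest point for 9 of the 10 genes.

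Together the 4 target genes took 0.0797% ± 0.0415 (SD, n = 4) of all normalized counts with DMSO and 0.413% ± 0.139 with trametinib. Per kb of merged exons, the DMSO levels were 3818 ± 2419 for Ccn1, 2728 ± 1288 for Ccn2, 2438 ± 1753 for Ankrd1 and 897 ± 328 for Amotl2. Line by line, Ccn1 was above Ankrd1 in 4 of 4 DMSO libraries, though in 3 per longest coding transcript, and above Ccn2 in 3, whereas Ccn2 was above Ankrd1 in 2. With trametinib the levels per kb were 21443 ± 9304, 15346 ± 6300, 9592 ± 5282 and 2947 ± 236. Ccn1 and Ccn2 were then at or above the 99.4th and 99.2nd percentile of level per kb in every library, among the 15330 tested genes with a known length. The TEAD genes were much lower, with trametinib levels per kb of 891 ± 104 for Tead2, 626 ± 76.6 for Tead1, 342 ± 30.5 for Tead4 and 141 ± 21.5 for Tead3.

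Line #3 stood apart from the other lines in these genes. With DMSO it was the lowest line for 9 of the 10 genes (Tead1 was lowest in line #10), where 30.7% of all genes tested were lowest in line #3. It was at 5.64% of the mean of the other lines for Ankrd1, at 10.1% for Ccn1, at 35.5% for Ccn2 and at 40.1% for Amotl2. It also had the most positive log2 change for 9 of the 10 genes, all but Tead4, against 29.6% of all genes tested. A change is computed from the DMSO value, so these counts share that value. The ratio of the highest to the lowest line was smaller with trametinib for 10 of the 10 genes, as it was for 40.7% of all genes tested. It went from 23.4 to 6.70 for Ankrd1, from 12.7 to 3.42 for Ccn1 and from 2.76 to 1.22 for Amotl2. Without line #3 the log2 fold changes were 1.97 for Ankrd1, 2.39 for Ccn1, 2.29 for Ccn2 and 1.54 for Amotl2, and each passed by limma (adjusted p = 0.000298, 0.000174, 0.000152 and 0.000125).

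Markers of other cell types were measured beside these changes. Of the 5 smooth muscle markers, 4 were tested and all 4 rose (Acta2, Cnn1, Tagln and Myh11), while Des was at most 7.73. Cnn1 was at most 3.93 with DMSO, and Myh11 was 0 in every DMSO library and in line #3 with trametinib. Cnn1 and Myh11 met the mean of at least 10 only through trametinib libraries, so the filter allowed them only a rise. The list summed to 26.0 to 96.8 with DMSO and to 787 to 25408 with trametinib. The smooth muscle sum rose by 7.84, 4.21, 9.01 and 5.00 on the log2 scale in the lines, least in line #3. Of the 11 fibroblast markers, 5 were tested and 1 rose, Col1a1, with sums of 98.0 to 369 and 440 to 1260 and log2 changes of the sum of 1.49, 3.68, 1.43 and 2.88, most in line #3, and Col1a2, Lum, Dpt and Postn were below 5 in every library. Most of the sum with trametinib was Col1a1 alone, at 360 to 1110. Col3a1 and Pdgfra each rose in 3 lines but changed by -2.95 and -2.36 in line #5, and Dcn rose in 1 line. Of the epithelial markers, 8 were tested, of which 6 fell and 1, Cldn4, rose (log2 fold change 4.61), and the list's sums were 221344 to 348950 with DMSO and 113505 to 222101 with trametinib. The epithelial sum changed by -0.28, -1.21, -0.73 and -0.44 on the log2 scale, most in line #3. Cdh1 itself was at 24588 ± 3855 and 24100 ± 2562 (SD, n = 4). Of 5 endothelial markers, 3 were tested and Tek rose, with list sums of 30.9 to 55.4 and 62.7 to 831 and log2 changes of 1.87, 4.53, 1.16 and 1.02, again most in line #3, and Emcn was below 5 in every library. Tek alone was at 153, 805, 30.5 and 13.5 with trametinib. Of 5 leukocyte markers, 4 were tested and Csf1r rose, with sums of 150 to 233 and 235 to 515, and Ptprc was at most 17.2. The 1 acinar marker tested, Cela1, fell, and the sum of that list was 46.5 to 254 with DMSO and 22.3 to 127 with trametinib. Among all genes tested, 27.3% rose and 25.6% fell. Rises of 1 of 5 fibroblast, 1 of 3 endothelial and 1 of 4 leukocyte markers tested were near that first share. These 3 counts therefore do not set those lists apart from other genes. Falls of 6 of 8 epithelial markers and rises of 4 of 4 smooth muscle markers were well above these shares. For Cnn1 and Myh11 the filter allowed only a rise. The part of other cell types in the changes of the 10 genes was not tested.

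Genes around YAP and TAZ in the pathway were counted by list. Of 23 genes of the Hippo cascade and its upstream brakes, 22 were tested, of which 9 rose (40.9%, against 27.3% of all genes tested) and 4 fell (18.2%, against 25.6%), with a median log2 fold change of 0.20 against 0.07 over all genes. The core kinases and their scaffold did not rise together. Stk3 and Stk4 had log2 fold changes of 0.06 and -0.04 and did not pass (limma adjusted p = 0.633 and 0.682), and Nf2, which encodes the membrane scaffold merlin, had -0.11 (adjusted p = 0.294). Sav1, the partner of the upstream kinases, fell by 0.30 (limma adjusted p = 0.022), but did not pass in 6 of the 14 alternatives, among them equal totals (-0.17, adjusted p = 0.113) and quantile normalization (-0.18, adjusted p = 0.116). The downstream kinases split, since Lats1 fell by 0.39 (limma adjusted p = 0.00920) whereas Lats2 rose by 1.18 (adjusted p = 0.000978), with every trametinib library of Lats2, at 2917 to 4295, above every DMSO library, at 893 to 2126.

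Ptpn14, which encodes a phosphatase that binds YAP, had the largest rise among the 23 listed brakes, which do not include Amotl2, by 1.33 (SE 0.10, limma adjusted p = 0.000293), from 2772 to 3145 over the DMSO libraries to 6564 to 8253 with trametinib. Amot, which encodes angiomotin, rose by 1.13 (SE 0.09, limma adjusted p = 0.000339), and its relative Amotl1 rose by 0.64 (adjusted p = 0.00752), beside the 1.81 of Amotl2. Wwc2 and Wwc1, which encode the scaffolds WWC2 and KIBRA, rose by 0.69 and 0.39. The kinase genes Map4k4, Taok3 and Taok2 rose by 0.56, 0.49 and 0.35. Frmd6 and Mink1 fell by 0.47 and 0.40, and Frmd6 did not pass in 3 of the 14 alternatives. Without the block for cell line, 8 of the 32 genes tested in the cascade, antagonist and cofactor lists passed in place of 18, and none of the 8 was a fall. These are 25% in place of 56.2%, where over all genes tested 28.7% passed in place of 53%.

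Of 8 antagonists of the cascade, 2 rose (25.0%), 1 fell (12.5%) and 5 did not pass, shares no higher than the 27.3% and 25.6% of all genes tested. Those that rose were the LIM-domain genes Wtip, by 1.05 (limma adjusted p = 0.000946), and Ajuba, by 0.68 (adjusted p = 0.00377), whose products bind the LATS kinases. Slmap, which encodes a part of the phosphatase complex that acts on the upstream kinases, fell by 0.31 (adjusted p = 0.016), but did not pass in 6 of the 14 alternatives, among them equal totals (-0.18, limma adjusted p = 0.093) and quantile normalization (-0.19, adjusted p = 0.087). The Vgll genes encode cofactors that bind TEAD factors, and both of those tested rose. Vgll4 went from 936 to 1709 over the DMSO libraries to 2148 to 2943 with trametinib, a log2 fold change of 1.01 (SE 0.10, limma adjusted p = 0.000594). Vgll3 was low, at 3.10 to 22.3 with DMSO and 9.35 to 915 with trametinib, and its log2 fold change of 2.70 (SE 0.68, limma adjusted p = 0.015) did not pass without the block (adjusted p = 0.145). The lines changed by 2.52, 0.74, 5.29 and 2.26, and the estimate was 1.84 without line #5 and 3.36 without line #3. Vgll2 was at most 0.653 in any library.

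Of 18 further genes named as YAP and TAZ targets, 10 rose (55.6%, against 27.3% of all genes tested), 2 fell (11.1%, against 25.6%) and 6 did not pass, and their median log2 fold change was 0.95. Lats2 and Ptpn14 are in this list as well as among the brakes. Tgfb2, a secreted growth factor, rose most, from 51.2 to 103 over the DMSO libraries to 1960 to 3020 with trametinib, a log2 fold change of 5.09 (SE 0.12, limma adjusted p = 1.5e-05). Ccdc80, which encodes a matrix protein, rose by 4.08 (SE 0.34, limma adjusted p = 0.000350), the DMSO libraries lying at 29.4 to 163 and the trametinib libraries at 199.5 to 3190. Rbms3 rose by 2.77 and Nuak2 by 1.99, followed by Gadd45a, Nt5e, Crim1 and Arhgef17 with rises of 1.86, 1.19, 1.16 and 0.75. Rbms3 was very low, at 1.598 to 12.3 with DMSO and 3.25 to 165 with trametinib. It did not pass without the block (limma adjusted p = 0.084), and was at 3.46 without line #10, where its own change was 0.71. The list was not uniform, because Igfbp3, which encodes a binding protein of insulin-like growth factors, fell by 2.95 (SE 0.18, limma adjusted p = 0.000165), the DMSO libraries lying at 1871 to 6780 and the trametinib libraries at 249 to 648. Dock5 fell by 0.38, and did not pass without the block (limma adjusted p = 0.109). Axl, a receptor tyrosine kinase often used as a YAP target, had a log2 fold change of 0.04 (SE 0.16, limma adjusted p = 0.853), and Myof, Asap1, F3, Fjx1 and Foxf2 had values between -0.28 and -0.03 that did not pass.

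**Figure D4:**
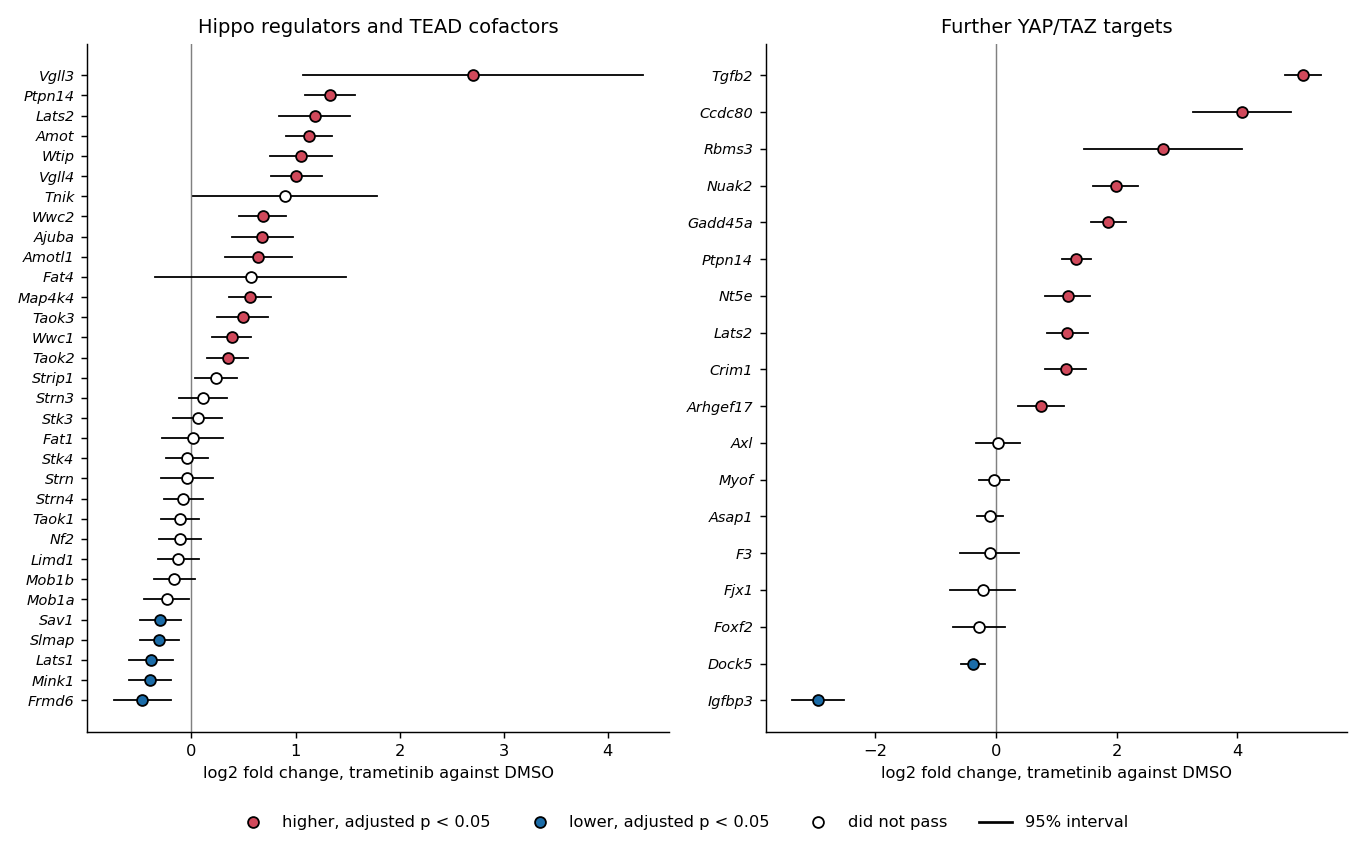
Log2 fold change with trametinib (points) and 95% limma interval (lines) for the tested Hippo regulators and TEAD cofactors (left) and further YAP/TAZ targets (right); red passed as higher, blue as lower, white did not pass. Vgll3, Ptpn14 and Lats2 are at the top of the left panel, and Tgfb2 at 5.09 and Igfbp3 at -2.95 end the right one.

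Relatives of the target genes were compared with them. Ccn4, of the same family as Ccn1 and Ccn2, rose by 6.10 (SE 0.31, limma adjusted p = 9.6e-05), from 8.36 to 29.97 over the DMSO libraries to 308 to 3807. Ccn3 rose by 1.87 (SE 0.33, limma adjusted p = 0.00359, and 0.054 without the block) but was at most 190 in any library, and Ccn5 and Ccn6 were at most 8.58 and 1.03. Of the relatives of Ankrd1, Ankrd23 rose by 0.58 (limma adjusted p = 0.025) but did not pass in 4 of the 14 alternatives, among them quantile normalization (0.34, adjusted p = 0.136), and Ankrd2 was at most 3.83. Ccn1, Ccn2 and Ankrd1 are known to be read out by serum response factor with its MRTF coactivators as well as by YAP and TAZ. Srf had a log2 fold change of -0.15 (limma adjusted p = 0.443), Mrtfb rose by 0.79 (adjusted p = 0.000723), and Mrtfa rose by 0.61 (adjusted p = 0.033), the last not passing in 7 of the 14 alternatives, with adjusted p up to 0.078. The lines changed by 0.292, 1.396, 0.383 and 0.369 in Mrtfa, and without line #3 the log2 fold change was 0.35 (limma adjusted p = 0.00755).

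The genes most like the 3 members with the largest change were found by the root mean square difference of centred log2 values over the 8 libraries. For Ccn1 they were Dusp1, Nppb and Tgm2, at differences of 0.35, 0.36 and 0.37. Those of Ccn2 were Msrb3, Dusp8 and Rhoq, at 0.30, 0.31 and 0.34. Ankrd1 had the nearest genes Vash1 and Nppb, at 0.40 and 0.46, and then Ccn1 itself, at 0.50.

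Exons of Yap1, Tead2 and Ccn2 overlap a gene on the opposite strand, Gm20416, Cd37 and Gm15270. The libraries were stranded, but whether counting used the strand is not given in the sources used here. The 4 Tead genes are paralogs, and how reads shared by near-identical stretches were divided between them was not examined.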

How the data were processed

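Stranded polyA RNA-seq libraries of 4 PDAC lines with DMSO and with trametinib were analysed from 1 table of normalized counts. Per the labels, the submitters' processing notes name CASAVA 2.17, Salmon 0.12, DESeq2 1.18 and mm10, with no role for each. The deposited values are a signal scaled between libraries by the authors and not divided by gene length. They are not whole numbers, and the low values were not whole multiples of 1 step for nearly all genes, so no count test was run. From the usual spacing of low values, depth was estimated at 29367000 to 45952700 reads per library.

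Genes with a mean of at least 10 (15888 of 34478) were tested on log2(value + 1) with limma 3.58.1 in R 4.3.3 (lmFit, eBayes with trend), blocked by cell line, and p-values were adjusted over all genes by Benjamini-Hochberg (threshold 0.05). Fold changes are on that scale, which understates changes of low genes. The fit was also run on simulated counts in which the drug effect was the same in every line. It recovered 49 of 64 changes of size 0.5 on the log2 scale, 74 of 75 of size 1 and 61 of 61 of size 2. Of 15293 unchanged genes, 5 were called. The drug effect differed between lines in the real data, so the simulation does not give the error rate there. Both libraries of a number come from the same line, and their deviations from the group means correlated at 0.63 to 0.72. Ratios and shares were tested with two-sided exact permutation tests that flip the sign of line differences. Gene positions and lengths are from GENCODE M21 (GRCm38), and sequences from RefSeq.

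All 10 genes are reported. From the lists, genes with the largest rise and fall among those that passed were named (up to 4 each way), and others may be. For the 3 members that changed most, the 3 nearest genes were named. The members, lists and tests were chosen with earlier results of these data known. Alternatives were the pseudocount, the filter, the scaling, the block, the variance model and leaving out each line. Other columns than the 8 libraries were not used. A further allele of the shared genotype is not reported here.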

Additional observations from a re-analysis of the deposited data

Results flagged for a closer look

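In groups of 4 libraries or 4 line differences, 1 value stood far from the other 3 in 2 of the 39 groups of the 10 genes that were looked at. Chance gives about 1 in 20, or 1.95 groups. The log2 fold change of Tead4 was -0.90 in line #5, against -0.57 to -0.51 in the other lines, and it fell in all 4. Ccn1 was at 1001 with DMSO in line #3, against 8372 to 12713 in the other DMSO libraries.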

How the results depend on the processing

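Over 14 alternatives, the 9 genes that passed, all members but Yap1, kept their direction in all 126 values, and 120 of these also passed. The 6 that did not were Tead1, Tead3 and Ankrd1 without the replicate block and Tead3 without a variance trend (adjusted p = 0.052), without line #3 and without line #5. Hence 8 or 9 members passed under each alternative but the fit without the block, in which 6 did, 5 higher and 1 lower. Without the replicate block, 4552 genes were called, 2205 higher and 2347 lower, in place of 8416, and 8 Hippo regulators in place of 18. Yap1, which never passed, turned to 0.10 with equal totals, 0.11 with quantile normalization, 0.031 without line #5 and 0.0060 without line #10, and ranged from -0.10 to 0.031 over the fits without 1 line. The change of the Tead1 share turned to -0.61 points without division by exon length and to -0.45 points with the longest coding transcript, an alternative chosen after seeing the data; the cause was not tested. Leaving out 1 line gave 6747 to 8202 genes, 15 to 18 Hippo regulators, 12 to 13 further targets and a ratio change of 0.89 to 0.96. With 4 lines the exact tests cannot go below 0.13, and with 3 lines 0.25. No depth limit applies to the 10 genes, whose lowest value was 291, but Vgll3 and Rbms3 had DMSO values near the level of 3 reads.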
